A study of Mus musculus with 11 samples.

Results

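Glomeruli of diabetic mice given puerarin were compared with glomeruli of diabetic mice given vehicle, as 7 of the 11 RNA-seq libraries of the series. The 3 puerarin libraries (named S144, 2 and 3 after their titles) and the 4 vehicle libraries (S152, S153, 1 and 3) were chosen by treatment label. All 7 came from db/db mice, which are homozygous for a mutated leptin receptor and develop obesity, type 2 diabetes and kidney disease. Puerarin, an isoflavone glycoside of kudzu root, was given by oral gavage in 5% DMSO at 20 mg per kg body weight per day. Vehicle mice received 5% DMSO alone. Treatment began at 10 weeks of age and lasted 6 weeks in both groups. The other 4 libraries came from db/m littermates, heterozygous non-diabetic mice given vehicle, and served to estimate the spread and as a reference level. The labels give the background as BKS in one field and as C57BL/6J in another, and do not say whether a library came from 1 animal or a pool. The p-values cover only the variation seen between these libraries, part of which can be technical.

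The glomerulus filters plasma through fenestrated endothelium, a basement membrane and the foot processes of podocytes, while mesangial cells and pericyte-like cells hold the capillary tuft and contract. Small arterioles enter and leave each glomerulus, with smooth muscle in their walls. Isolated glomeruli carry variable amounts of these arterioles and of attached tubule. The series names Gnai1, an inhibitory G protein alpha subunit that restrains adenylyl cyclase, as a binding partner of puerarin in podocytes, and the cAMP pathway as the route of interest.

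Total counts were 35369703 to 44244460 per library. Levels are given as CPM (counts normalised to a common library size with TMM). All 33 listed podocyte markers were measured, and their summed level was 26800 to 38100 CPM in the 7 libraries. Library titles had 2 forms, an S number or a group tag, and each form held both treatments: S144 against S152 and S153, and puerarin 2 and 3 against vehicle 1 and 3. The labels do not say what the forms stand for. They name 2 sequencing sites and assign no library to either. Name form was a term in the fit, and differences are given within each form as well.

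The labels call the mice male, and 2 puerarin libraries went against this. Xist, the RNA that coats the inactive X chromosome, was at 528 and 819 CPM in puerarin 2 and 3 and at 0.873 CPM in puerarin S144. It was at 1.43, 0.726, 0.895 and 6.47 CPM in vehicle S152, S153, 1 and 3. The Y-linked RNA helicase gene Ddx3y was at 3.06 and 0.909 CPM in puerarin 2 and 3, 73.2 CPM in S144 and 54.3 to 85.2 CPM in the 4 vehicle libraries. Both group-tag puerarin libraries therefore had little Y-linked signal, while S144 and all 4 vehicle libraries carried it. Sex and puerarin cannot be told apart within the group-tag libraries, and only S144 against S152 and S153 is free of this, with 1 library on the puerarin side. The main counts and some other values are also given without puerarin 2 and 3. A value given only with all libraries may move when those 2 are left out. Genes of chromosomes X and Y were left out of rankings.

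**Figure D1:**
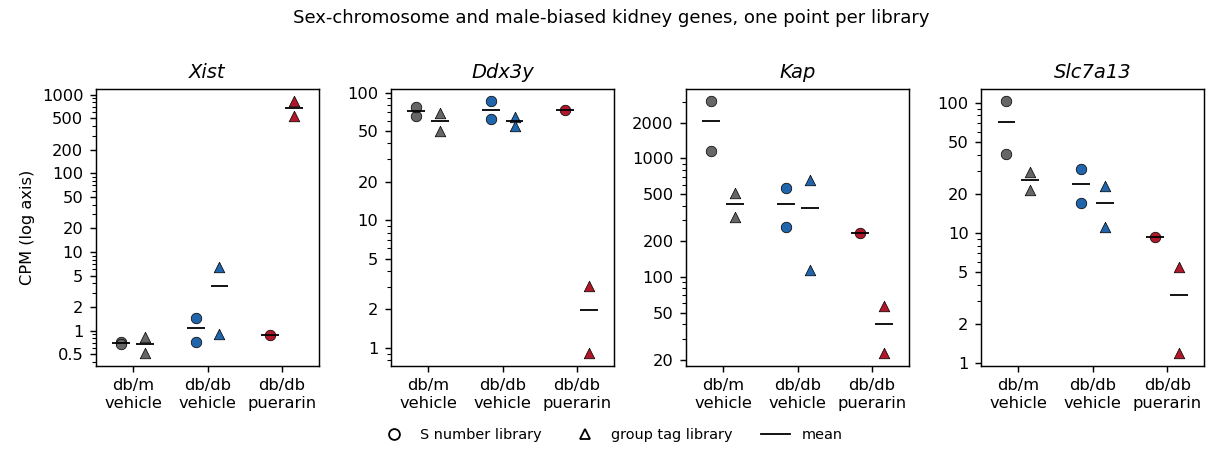
Xist, Ddx3y and the male-biased kidney genes Kap and Slc7a13 in each library (y axis, CPM on a log axis) by group, with circles for S-number libraries, triangles for group-tag libraries and bars for means. Puerarin 2 and 3 sit at 528 and 819 CPM of Xist and at 3.06 and 0.909 CPM of Ddx3y, apart from the other 9 libraries.

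No gene passed the test for puerarin against vehicle. In edgeR's quasi-likelihood test over 13734 genes, 0 genes (0.0%) had a Benjamini-Hochberg adjusted p under 0.05, and the smallest adjusted p was 0.526, for the smooth muscle actin gene Acta2. At an unadjusted p under 0.05, 277 genes (2.02%) were higher and 301 (2.19%) were lower with puerarin. Of all 13734 genes, 6145 had a positive and 7589 a negative fold change, the split to set beside the list counts below. DESeq2 called 15 genes (0.109%), of which 12 were higher and 3 lower. The 12 were Acta2, Tagln, Tpm2, Ppp1r14a, Daam2, Tdrd5, Clec2d, Myct1, Myom1, Tgfb3, S100a13 and Xist, and the 3 were Slc7a5, Susd3 and Nat8f5. Without puerarin 2 and 3, edgeR again called 0 genes, with a smallest adjusted p of 0.802. Without puerarin S144 it called 5 genes, all on X or Y: Xist was higher, and 4 Y-linked genes were lower. The puerarin differences of single autosomal genes given from here on did not pass the edgeR test and are described as levels.

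The puerarin differences in the 2 sets of libraries were close to uncorrelated over all autosomal genes. Across the 13274 autosomal genes, the difference within S-number libraries and that within group-tag libraries had a Pearson r of 0.007, and 50.3% of genes had the same sign. The 2 differences share no library, and genes are not independent replicates. A difference beyond 1 on the log2 scale was seen for 528 genes in the S-number libraries and for 210 in the group-tag libraries. Of the 528, 18 went beyond 1 in the same direction in the group-tag libraries. That is a larger share than the 210 of all 13274 genes, which counts either direction. Tubule markers lay toward the low end of the first difference and myeloid markers toward the low end of the second, while contractile genes were higher in both.

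**Figure D2:**
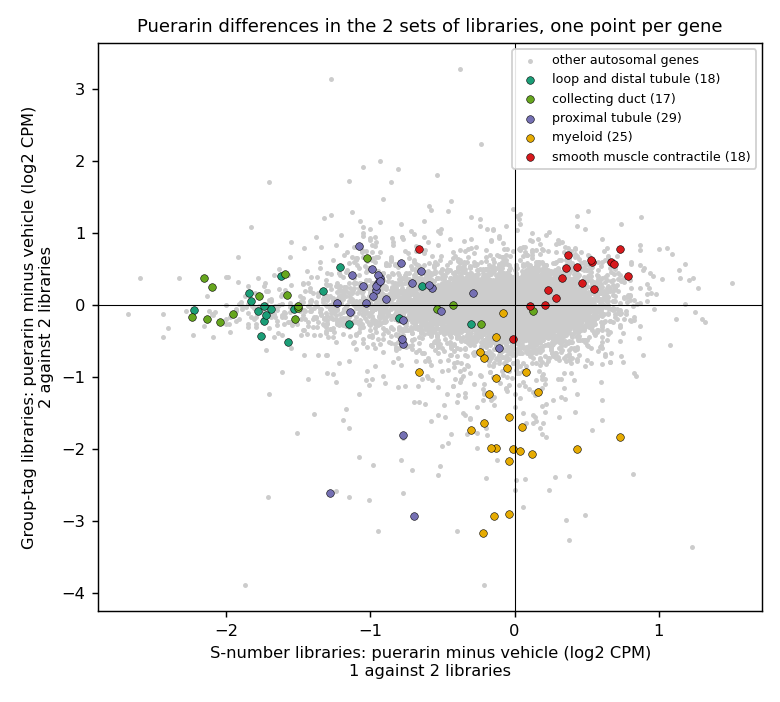
Difference in log2 CPM, puerarin minus vehicle, for each autosomal gene within S-number libraries (x axis, 1 against 2 libraries) and within group-tag libraries (y axis, 2 against 2). Coloured points are autosomal members of 5 gene lists: loop, collecting duct and proximal tubule genes spread left, myeloid genes spread down, and most smooth muscle contractile genes lie in the upper right.

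Genes of the smooth muscle contractile apparatus were higher with puerarin in both sets of libraries. Of 19 measured members, 18 had a positive fold change, as did 6145 of all 13734 genes. At an unadjusted p under 0.05, 11 members were higher and 0 lower, where 2.02% and 2.19% of all genes were. The median log2 fold change was 0.34, against -0.02 over all genes. Taken separately, the S-number libraries gave 0.37 and the group-tag libraries 0.40. In 11 of the 19, puerarin lay above vehicle without overlap inside each name form, where 4.81% of all genes did so. The list was chosen with earlier results of these data known, so these counts are a description. Leaving out 1 library gave medians of 0.33 to 0.52 (the highest without vehicle S153), and leaving out puerarin 2 and 3 gave 0.44.

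Acta2 encodes smooth muscle alpha-actin, the thin filament protein of vascular smooth muscle and of activated mesangial cells. It was at 81.8 CPM in puerarin S144, against 48.1 and 50.4 CPM in vehicle S152 and S153. In the group-tag libraries it was at 245 and 309 CPM in puerarin 2 and 3, against 184.6 and 142 CPM in vehicle 1 and 3. The treatments did not overlap within a name form, yet S144 lay below both group-tag vehicle libraries. The log2 fold change was 0.75 (SE 0.11), with an edgeR adjusted p of 0.526 and a DESeq2 adjusted p of 8.95e-06. It was 0.75 without puerarin 2 and 3 as well (edgeR adjusted p = 0.802).

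Tagln, which encodes the actin-binding protein transgelin, was at 63.2 CPM in S144 against 39.0 and 48.7 CPM, and at 143.7 and 150 CPM in puerarin 2 and 3 against 107 and 87.9 CPM. Its log2 fold change was 0.56 (SE 0.10). Tpm2, a tropomyosin gene, was at 75.2 CPM in S144 against 46.5 and 47.8 CPM, and at 129 and 177 CPM against 111 and 89.2 CPM. Its log2 fold change was 0.64 (SE 0.12). Both genes repeated the Acta2 pattern, with separation inside each form and overlap across forms. Myh11, the smooth muscle myosin heavy chain, was at 79.0 CPM in S144 against 55.8 and 66.9 CPM, and at 425 and 553 CPM against 343 and 265 CPM. Myl9, a myosin regulatory light chain, was at 325 CPM in S144 against 248 and 220 CPM, and at 357 and 344 CPM against 334 and 243 CPM. The gap between treatments for Myl9 was narrow in the group-tag libraries, where vehicle 1 nearly reached puerarin 3. Without puerarin 2 and 3, the log2 fold change of Myh11 was 0.34 (0.58 with them) and that of Myl9 was 0.55 (0.34 with them). Not every member shared this direction. Cnn1, which encodes calponin, an actin-binding inhibitor of myosin ATPase, had a log2 fold change of 0.29 (SE 0.34) and differed in direction between forms. It was at 11.1 and 11.6 CPM in puerarin 2 and 3 against 7.48 and 5.84 CPM, but at 0.597 CPM in S144 against 0.715 and 1.32 CPM, so its direction turned without puerarin 2 and 3 (-0.57 on the log2 scale). Des, which encodes the intermediate filament protein desmin and is also a mesangial marker, was the 1 member with a negative fold change (-0.34, SE 0.25). It was at 98.7 CPM in S144 against 97.7 and 100.8 CPM, and at 61 and 66.5 CPM in puerarin 2 and 3 against 125.5 and 61.8 CPM, so its lower value rested on vehicle 1 (-0.08 without that library) and turned to 0.04 without puerarin 2 and 3.

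**Figure D3:**
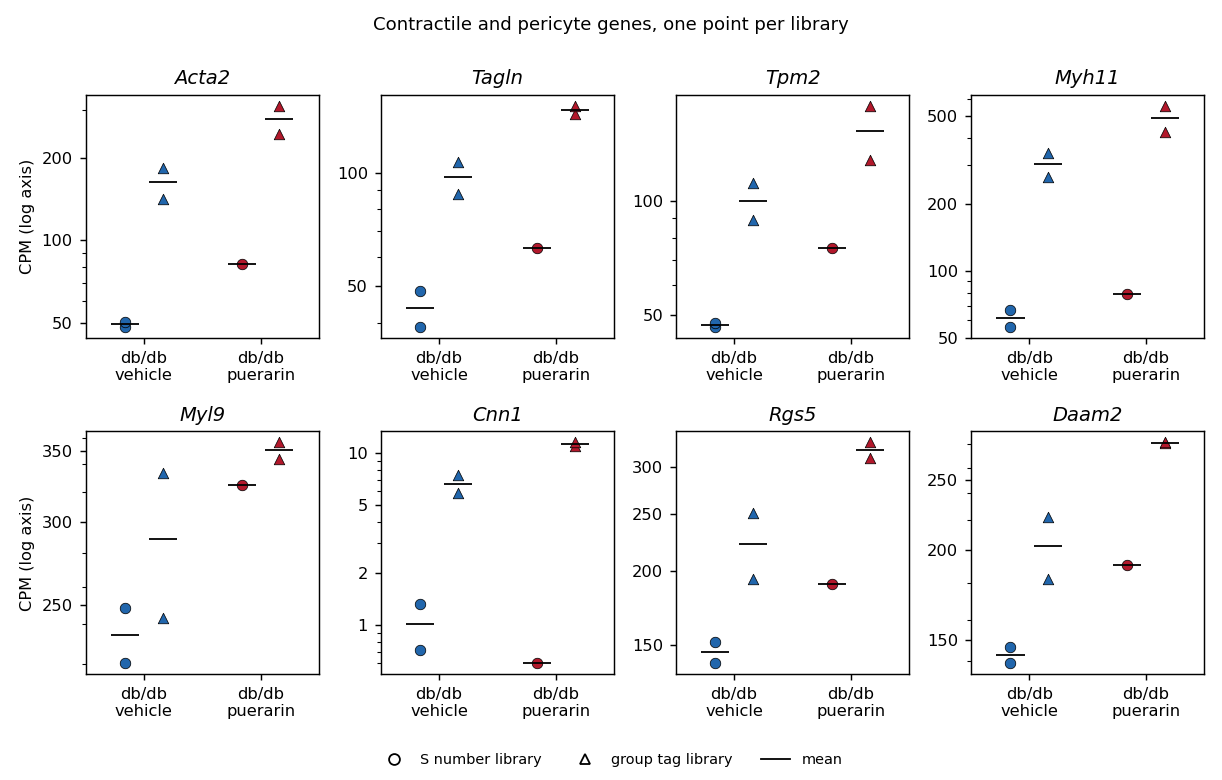
CPM (log axis) of 8 contractile, pericyte (Rgs5) or actin-related genes in the 7 db/db libraries, with circles for S-number libraries, triangles for group-tag libraries and bars for the mean of each form. Puerarin lies above vehicle within each form for every gene shown except Cnn1 in the S-number libraries, and for most genes the forms differ more than the treatments.

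For most of these genes the 2 name forms differed more than the 2 treatments. In db/m vehicle glomeruli, Acta2 was at 61 and 60.2 CPM in the S-number libraries and at 208 and 195 CPM in the group-tag libraries. Myh11 was at 103 and 89.4 CPM and at 470 and 378 CPM there, in that order. Puerarin thus exceeded db/m within each form for Acta2. For Myh11, S144 was below both S-number db/m libraries, and puerarin 2 lay between the group-tag ones. The level of the contractile list (mean log2 CPM of its members, centred on the 7 db/db libraries) was -0.67 and -0.48 in vehicle S152 and S153 and -0.21 in S144. It was 0.37 and -0.06 in vehicle 1 and 3, and 0.44 and 0.60 in puerarin 2 and 3. Within each form the puerarin libraries were the highest. The amount of arteriole in each preparation was not measured. In bulk RNA, more cells of a type and more RNA per cell cannot be told apart.

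Among the genes ranked highest outside that list were Ppp1r14a, Rgs5, Myom1 and Daam2. Rgs5 belongs to the mesangial and pericyte list, where 13 of 20 members were lower, and Daam2 to the actin and adhesion list, whose median was 0.03. Ppp1r14a encodes CPI-17, an inhibitor of myosin phosphatase. It was at 6.85 CPM in S144 against 3.75 and 4.48 CPM, and at 14.2 and 13.7 CPM in puerarin 2 and 3 against 8.97 and 7.55 CPM (log2 fold change 0.73, SE 0.14). Rgs5, a pericyte gene whose product speeds the turning off of G protein alpha subunits, was at 190 CPM in S144 against 140 and 151.7 CPM, and at 311 and 331 CPM against 251 and 194 CPM (log2 fold change 0.47, SE 0.11). Myom1, which encodes the sarcomere protein myomesin, had a log2 fold change of 0.47 (SE 0.10), and Daam2, a formin that assembles actin filaments downstream of Wnt signals, had 0.46 (SE 0.09). Daam2 was at 190 CPM in S144 against 139 and 147 CPM, and at 281 and 282 CPM against 222 and 182 CPM. For these 4 genes the treatments separated inside each form and overlapped across forms.

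The promoters of Acta2, Myl9 and Daam2 are shown because the contractile genes were higher together and because the cAMP pathway named by the series acts through CREB. Serum response factor drives many contractile genes through the CArG box (CC, 6 letters of A or T, GG), and CREB binds the cAMP response element TGACGTCA. Each motif is its own reverse complement, so a search of one strand covers both. The 250 bases before the start site are given 5′ to 3′ on the gene's strand from RefSeq on GRCm38.p6, the assembly of mm10, with matches in capitals.
Acta2 (chr19:34255374-34255623, minus strand, CArG boxes with 1 letter off): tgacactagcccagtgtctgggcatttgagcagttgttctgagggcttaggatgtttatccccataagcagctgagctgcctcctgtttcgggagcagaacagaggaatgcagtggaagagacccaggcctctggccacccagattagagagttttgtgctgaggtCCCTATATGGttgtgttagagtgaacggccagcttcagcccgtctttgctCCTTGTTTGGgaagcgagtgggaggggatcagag
Myl9 (chr2:156775214-156775463, plus strand, exact CArG box): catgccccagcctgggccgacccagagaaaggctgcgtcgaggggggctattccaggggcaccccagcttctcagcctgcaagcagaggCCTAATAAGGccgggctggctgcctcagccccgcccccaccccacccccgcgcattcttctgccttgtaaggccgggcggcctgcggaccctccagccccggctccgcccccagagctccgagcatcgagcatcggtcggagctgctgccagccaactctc
Daam2 (chr17:49564338-49564587, minus strand, cAMP response element): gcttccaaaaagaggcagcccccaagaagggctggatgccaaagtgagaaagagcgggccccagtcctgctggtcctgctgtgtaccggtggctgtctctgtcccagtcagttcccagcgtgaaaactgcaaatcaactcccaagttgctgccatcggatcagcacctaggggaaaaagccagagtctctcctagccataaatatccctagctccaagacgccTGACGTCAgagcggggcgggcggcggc

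A promoter window was matched for 10615 of the genes and for 16 of the 19 contractile genes. An exact CArG box was present in 1.4% of the 10615 genes and in 1 of the 16, Myl9. With 1 letter off allowed, which was added after seeing the data, the shares were 18.2% and 6 of 16. The median log2 fold change was -0.01 for the 149 genes with an exact box and -0.02 for genes without one. Of these 149, 10 were higher and 3 were lower at an unadjusted p under 0.05, where 2.02% of all genes were higher and 2.19% lower. The cAMP response element was present in 300 genes (2.83%), whose median was 0.01, against -0.02 for the rest. Of these 300, 5 were higher and 5 were lower by the same measure. A match is a description of letters in this window and not a bound site.

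Other genes ranked highest had varied functions. Tgfb3 and Tgfb2 encode ligands of the transforming growth factor beta family, which drives matrix production in the diabetic glomerulus. Tgfb3 was at 9.90, 12.4 and 12.9 CPM in puerarin S144, 2 and 3, and at 5.87, 7.10, 7.93 and 5.62 CPM in vehicle S152, S153, 1 and 3 (log2 fold change 0.76, SE 0.17). Tgfb2 was at 23.9, 20.4 and 19.3 CPM in puerarin and at 18.9, 16.8, 11.5 and 11.4 CPM in vehicle (log2 fold change 0.67, SE 0.15, and 0.40 without puerarin 2 and 3). All 3 puerarin libraries exceeded all 4 vehicle libraries for both ligands, as did 1.51% of all genes. The db/m libraries held 14.8 to 33.0 CPM of Tgfb2, a range that spans the puerarin values. Tdrd5, a tudor-domain gene of the germline piRNA pathway, was at 195, 297 and 274 CPM in puerarin and at 139 to 178 CPM in vehicle (log2 fold change 0.62, SE 0.11). S100a13, a calcium-binding protein gene, was at 77.4, 72.3 and 72.2 CPM in puerarin and at 55.3 to 65.6 CPM in vehicle (log2 fold change 0.34, SE 0.08). Hipk4, a protein kinase gene, was at 4.55, 6.88 and 5.14 CPM in puerarin and at 2.15 to 3.63 CPM in vehicle. These 3 also separated fully. Clec2d (log2 fold change 0.60, SE 0.13), which encodes a ligand of natural killer cell receptors, Myct1 (0.63, SE 0.14), an endothelial membrane protein gene, and Ankrd1 (0.83, SE 0.19), a muscle ankyrin repeat protein gene, separated within each name form and overlapped across forms. For Ankrd1, S144 was at 14.5 CPM against 9.65 and 6.48 CPM, and puerarin 2 and 3 at 11.6 and 8.46 CPM against 4.94 and 6.19 CPM.

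Among genes lower with puerarin, Slc7a5 encodes the LAT1 transporter of large neutral amino acids. It was at 2.34 CPM in S144 against 4.59 and 5.03 CPM, and at 4.73 and 3.19 CPM in puerarin 2 and 3 against 8.85 and 6.14 CPM. Its log2 fold change was -0.96 (SE 0.19, edgeR adjusted p = 0.967, DESeq2 adjusted p = 0.0125). Susd3, a sushi domain protein gene, was at 5.26, 2.89 and 2.93 CPM in puerarin S144, 2 and 3, and at 12.5, 11, 5.91 and 15.8 CPM in vehicle S152, S153, 1 and 3 (log2 fold change -1.58, SE 0.35). Every puerarin library was below every vehicle library for Susd3, as for 1.72% of all genes. The same held for Fam214a (-0.66, SE 0.15), Ccdc181 (-0.49, SE 0.12), Slc45a4 (-0.34, SE 0.08), Mctp1 (-0.53, SE 0.14) and Bcas3 (-0.43, SE 0.12). Slc45a4, a solute carrier gene, was at 58.8, 65.6 and 75 CPM in puerarin and at 76.7 to 89.2 CPM in vehicle. Rufy4 (-0.63, SE 0.16) and Olfm1 (-0.44, SE 0.12), a secreted glycoprotein gene, overlapped between treatments across name forms.

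Podocyte and endothelial genes had mostly small positive fold changes, by amounts that depended on the libraries used. Of 33 podocyte genes, 28 had a positive and 5 a negative fold change, with a median of 0.08 (0.20 by the S-number libraries, 0.05 by the group-tag libraries). At an unadjusted p under 0.05, 1 of the 33 was higher, close to the 2.02% of all genes, so the count is not a result about this list. That gene was Rhpn1 (log2 fold change 0.36, SE 0.16). It was at 508 CPM in S144 against 503 and 485 CPM, and at 858 and 669 CPM in puerarin 2 and 3 against 530 and 461 CPM, so the difference lay in the group-tag libraries (0.20 without puerarin 2 and 3). Of 26 glomerular endothelial genes, 21 were higher and 5 lower, with a median of 0.12. Where 2.02% of all genes were higher at an unadjusted p under 0.05, 2 of the 26 were. Those were Gpihbp1 (0.45, SE 0.20), which anchors lipoprotein lipase on capillaries, and Fabp4 (0.64, SE 0.20), a fatty acid binding protein gene. These were 0.30 and 1.02 without puerarin 2 and 3. The median of the podocyte list was 0.25 without puerarin 2 and 3 and 0.16 without vehicle 1, but -0.01 without S144 and -0.01 with the tubule level as a covariate. The median of the endothelial list was 0.30 in each of the first pair of settings, 0.05 without S144, 0.02 without vehicle 3 and -0.02 with that covariate. Of 20 mesangial and pericyte genes, 7 were higher and 13 lower, with a median of -0.10 and values of 0.08 by the S-number and -0.17 by the group-tag libraries. Its sign rested on vehicle 1: the median was 0.17 without vehicle 1, where the list level was 0.42, and -0.23 without vehicle 3, where it was -0.52. It was 0.11 without puerarin 2 and 3. Rgs5 was the 1 member with an unadjusted p under 0.05.

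Levels of the inhibitory G protein genes overlapped between treatments. Gnai1 was at 91.4 CPM in S144 against 82.6 and 75.3 CPM in vehicle, and at 65.8 and 58.2 CPM in puerarin 2 and 3 against 60.5 and 62.5 CPM. The mean log2 CPM differed by 0.02 between treatments (exact two-sided permutation p = 0.914 over 35 arrangements, where 0.0571 is the smallest p possible). That test cannot reach 0.05 in this design and takes no account of name form, so it does not show that the levels are alike. The edgeR log2 fold change was 0.08 (SE 0.11), and it was -0.05 without S144 and 0.29 without puerarin 2 and 3. Gnai2 had -0.04 (SE 0.15) and Gnai3 0.01 (SE 0.09), and both changed sign among the settings tried. The mRNA level is not the activity of the protein, and binding was not measured here.

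Over the 42 measured genes of inhibitory G protein and cAMP signalling, the median was 0.00 (0.12 without puerarin 2 and 3). Of the 42, 21 were higher and 21 lower. At an unadjusted p under 0.05, 2 were higher and 1 lower, close to the 2.02% and 2.19% of all genes, so the count is not a result about this pathway. The lower one was Adcy3, an adenylyl cyclase gene, at 29.0, 29.3 and 30.8 CPM in puerarin and 33.2 to 35.8 CPM in vehicle (log2 fold change -0.23, SE 0.07). The higher ones were Pde4d, a phosphodiesterase that degrades cAMP (0.29, SE 0.11), and Crem, a cAMP-responsive transcription factor gene of the CREB family (0.34, SE 0.12, and 0.22 without puerarin 2 and 3). Adcy3 separated fully, within a narrow range. Of 16 CREB target genes, 9 were higher and 7 lower. Their median was 0.04, and it was -0.22 without puerarin 2 and -0.09 without puerarin 2 and 3. Where 2.02% of all genes were higher at an unadjusted p under 0.05, 4 of the 16 were. These included Crem and Pde4d, counted in both lists, and the nuclear receptor gene Nr4a2 (0.64, SE 0.21, and 0.34 without puerarin 2 and 3). Nr4a2 was at 8.82, 11.1 and 7.22 CPM in puerarin and at 8.70, 5.50, 5.17 and 5.08 CPM in vehicle, and vehicle S152 fell inside the puerarin range.

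Tubule genes were low in 1 puerarin library. The level of the loop and distal tubule list was -1.72 in S144, against -0.29 and -0.22 in vehicle S152 and S153. It was 0.53 and 0.54 in puerarin 2 and 3, against 0.12 and 1.03 in vehicle 1 and 3. All 18 members had a negative fold change (median -0.60), and the median was -1.65 by the S-number and -0.06 by the group-tag libraries. Without S144 the list median was -0.19, and without puerarin 2 and 3 it was -1.64. The collecting duct list had a median of -0.37 over both forms, -0.06 without S144 and -1.53 without puerarin 2 and 3. Its level was -1.69 in S144, and its medians were -1.55 by the S-number and -0.03 by the group-tag libraries. Aqp2, the vasopressin-regulated water channel of the collecting duct, was at 24.8 CPM in S144 against 111 and 110 CPM, and at 323 and 198 CPM in puerarin 2 and 3 against 178 and 215 CPM. Cldn19, a tight junction gene of the thick ascending limb, was at 2.34 CPM in S144 against 7.2 and 7.41 CPM, and at 17.0 and 14.2 CPM against 11.4 and 12.2 CPM. Both genes were low in S144, and neither passed edgeR's test of a difference between forms. Egf, which encodes the growth factor made by the distal tubule, was at 637 CPM in S144 against 1439 and 1391 CPM, and at 2199 and 2100 CPM against 2080 and 3222 CPM. Without puerarin 2 and 3, the log2 fold change was -2.16 for Aqp2 (-0.26 with them), -1.56 for Cldn19 (-0.22 with them) and -1.06 for Egf (-0.63 with them).

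The proximal tubule list had 28 of 29 members lower (median -0.39), with -0.93 by the S-number and 0.21 by the group-tag libraries. Its level ran from -1.14 in vehicle 1 to 1 in vehicle 3, so the vehicle libraries bracketed all 3 puerarin libraries. The list median turned to 0.35 without vehicle 3 and to 0.02 without S144, and it was -0.73 without vehicle 1. Without puerarin 2 and 3 it was -1.18. Genes of mitochondrial energy supply, which tubule cells express strongly, were also low in S144. Of 38 oxidative phosphorylation genes, 32 were lower (median -0.19), with -0.52 by the S-number and 0.02 by the group-tag libraries, and a level of -0.56 in S144. Of 31 fatty acid oxidation genes, 23 were lower (median -0.15), with -0.38 and -0.01 within the 2 forms. The level of this list was -0.39 in S144, and vehicle 1 was lower still at -0.46. With the tubule level as a covariate the medians were 0.07 for both lists. Without S144 the medians were 0.02 for the first and -0.05 for the second. Without vehicle 3 the first was -0.06 and the second -0.04. Without puerarin 2 and 3 the medians were -0.54 and -0.34, in that order. The mean level of the 3 tubule lists was -1.27 in S144, 0.27 and 0.37 in puerarin 2 and 3, and -0.24 to 0.93 in vehicle. With this covariate, which was estimated from the same libraries, edgeR called 0 genes, and Acta2 had a log2 fold change of 0.72 (adjusted p = 0.0897).

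**Figure D4:**
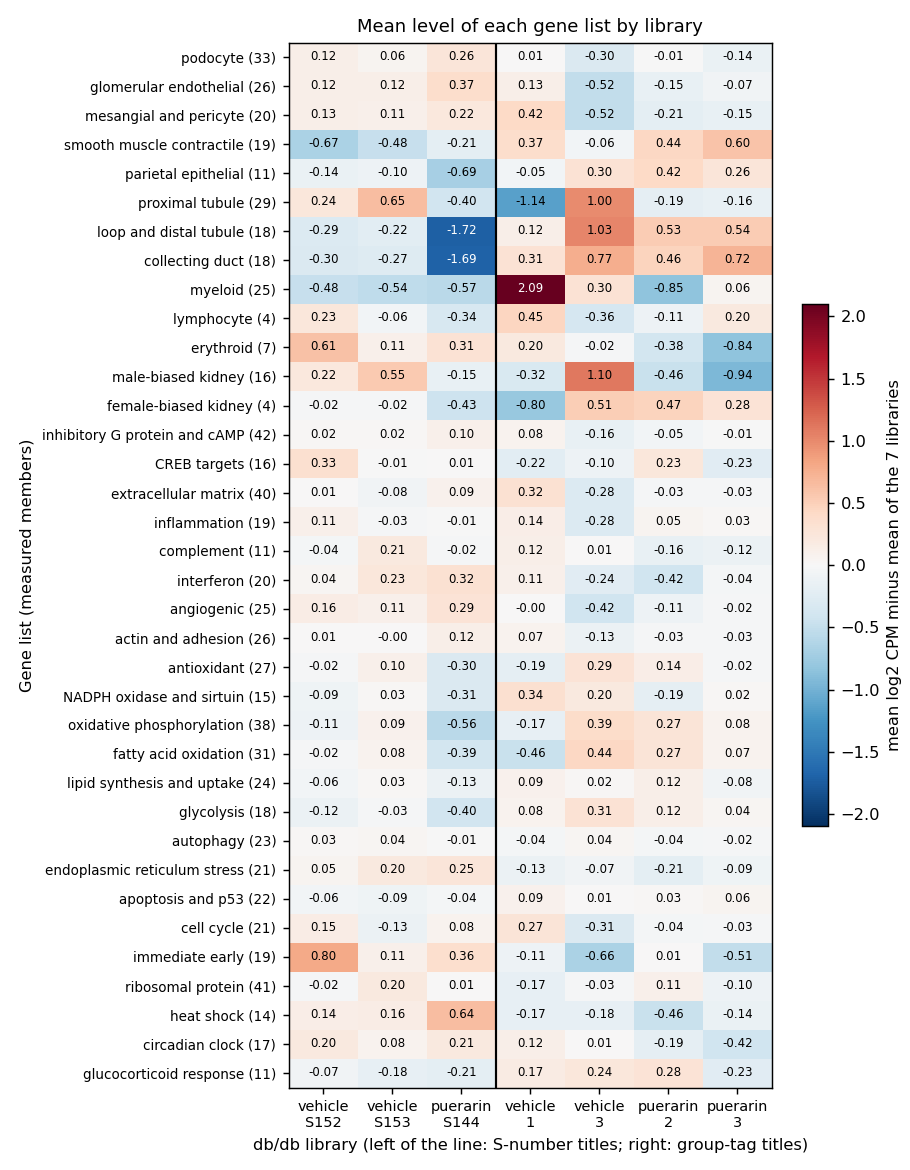
Mean log2 CPM of the measured members of each gene list (rows) in each db/db library (columns), minus the mean over the 7 libraries, with S-number libraries left of the line. Puerarin S144 is lowest for the loop (-1.72) and collecting duct (-1.69) lists, and vehicle 1 is highest for the myeloid list (2.09).

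Myeloid genes were high in 1 vehicle library. All 25 measured members had a negative fold change with puerarin (median -1.19). At an unadjusted p under 0.05, 3 were lower, where 2.19% of all genes were. The list level was 2.09 in vehicle 1 and 0.30 in vehicle 3, against -0.85 and 0.06 in puerarin 2 and 3. In the S-number libraries it was -0.57 in S144 against -0.48 and -0.54 in vehicle, with a median difference of -0.08. Without vehicle 1 the list median was -0.27. C1qa, a complement component made by macrophages, was at 93.3 and 22.7 CPM in vehicle 1 and 3 and at 3 and 12.4 CPM in puerarin 2 and 3. It was at 4.25 CPM in S144 against 4.95 and 3.84 CPM, and at 0.988 to 2.24 CPM in db/m glomeruli. Its log2 fold change was -1.95, and it was -0.75 without vehicle 1 and -1.17 without puerarin 2 and 3. H2-Eb1, a class II histocompatibility gene of antigen-presenting cells, was at 98.4 and 43.6 CPM in vehicle 1 and 3 and at 18.8, 9.94 and 27.6 CPM in puerarin (log2 fold change -1.26, SE 0.56). The difference thus lay in the group-tag libraries and most of all in vehicle 1. Cd14, a lipopolysaccharide co-receptor gene, had a log2 fold change of -0.54 (SE 0.21), and -0.31 without puerarin 2 and 3.

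Genes with male-biased expression in mouse kidney had lower values with puerarin, by an amount that depended on the vehicle libraries and the tubule level. All 16 members had a negative fold change (median -0.69). At an unadjusted p under 0.05, 6 were lower, where 2.19% of all genes were. In 6 of the 16, puerarin lay below vehicle inside each name form, where 4.91% of all genes did so. The list level was 1.10 in vehicle 3 and -0.32 in vehicle 1, and the median was -0.20 without vehicle 3, -0.90 without vehicle 1 and -1.09 without puerarin 2 and 3. Slc7a13, an aspartate and glutamate transporter of the late proximal tubule, was at 9.38 CPM in S144 against 16.9 and 31.0 CPM, and at 5.47 and 1.19 CPM in puerarin 2 and 3 against 11 and 23 CPM (log2 fold change -1.93, SE 0.55). Kap, an androgen-regulated protein of the proximal tubule, was at 237 CPM in S144 against 265 and 559 CPM, and at 56.7 and 22.7 CPM against 115 and 653 CPM (log2 fold change -2.31, SE 0.78, and -1.45 without puerarin 2 and 3). Cyp2j13, a cytochrome P450 gene, had -2.15 (SE 0.74, and -1.07 without puerarin 2 and 3), with -0.40 by the S-number and -3.13 by the group-tag libraries. Nat8f5, an N-acetyltransferase gene outside this list, was at 0.425 and 0.519 CPM in puerarin 2 and 3 against 1.22 and 8.64 CPM, and at 2.69 CPM in S144 against 4.57 and 7.98 CPM (log2 fold change -2.36, and -1.51 without puerarin 2 and 3). The list median was -0.53 within the S-number libraries, where the proximal tubule list was at -0.93. With the tubule level as a covariate the list median was -0.25, while that of the proximal tubule list was 0.39. The lists share Kap, Slc7a13, Cyp2e1, Cyp4b1 and Slc22a6, and the covariate was built in part from the proximal tubule list. These medians are therefore not independent. The part of sex in these values was not tested.

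Clock genes were mostly lower with puerarin in the group-tag libraries. Of 17 circadian genes, 13 were lower and 4 higher (median -0.24), with a median of 0.12 by the S-number and -0.51 by the group-tag libraries. It was 0.08 without puerarin 2 and 3 and -0.05 without puerarin 3 alone. Dbp, a clock-output transcription factor gene, was at 38.6 and 28.4 CPM in puerarin 2 and 3 against 101 and 88.8 CPM, and at 139 CPM in S144 against 129 and 127 CPM. Arntl, the clock activator that peaks in opposite phase, was at 16.5 and 26.4 CPM in puerarin 2 and 3 against 11.2 and 7.44 CPM, and at 4.62 CPM in S144 against 4.24 and 4.80 CPM. Without puerarin 2 and 3, the log2 fold change was 0.08 for Dbp (-0.79 with them) and 0.00 for Arntl (0.86 with them). Ciart, a clock repressor gene, had a log2 fold change of -1.01 (SE 0.30), and -0.58 without puerarin 2 and 3. In db/m vehicle 2 and 3, also group-tag libraries, Dbp was at 110 and 61.8 CPM and Arntl at 9.90 and 19.8 CPM. For both genes db/m vehicle 3 thus differed from db/db vehicle 1 and 3 in the same direction as puerarin 2 and 3. The labels used here state no time of day of collection. Heat shock genes stood out in S144 instead: Dnajb1, a co-chaperone gene, was at 188 CPM there against 97.8 and 107 CPM, and at 78.9 and 91.4 CPM in puerarin 2 and 3 against 88.8 and 78.3 CPM. Hspb1, a small heat shock protein gene, was at 105 CPM in S144 against 56.7 and 60.3 CPM, and at 37.9 and 42.2 CPM against 47.7 and 33.3 CPM. The log2 fold change was 0.83 for Dnajb1 (0.38 with all libraries) and 0.94 for Hspb1 (0.34 with all libraries) when puerarin 2 and 3 were left out. The median of the 14 heat shock genes was 0.13, with 0.54 by the S-number and -0.06 by the group-tag libraries. It was 0.01 without S144 and 0.47 without puerarin 2 and 3.

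The 6 genes (0.0437%) that fell in db/db against db/m glomeruli on vehicle (edgeR adjusted p of 0.0232 to 0.0493) were also read in the puerarin libraries. This comparison shares the db/db vehicle libraries with the one above, so the values stand side by side. Foxc2, a forkhead transcription factor gene of podocytes, was at 114, 99.0 and 89.8 CPM in puerarin, 89.0 to 111 CPM in db/db vehicle and 128 to 183.5 CPM in db/m. Aebp1, a collagen-binding protein gene, was at 356 to 398 CPM in puerarin, 340 to 399 CPM in db/db vehicle and 519 to 655 CPM in db/m. Kcnj12, a potassium channel gene, and Dkk3, a secreted Wnt modulator gene, were likewise within or close to the vehicle range with puerarin (log2 fold changes of 0.13, SE 0.11, and 0.08, SE 0.14, and of 0.26 and -0.00 without puerarin 2 and 3). The noncoding RNA gene C130021I20Rik was at 32.6 CPM in S144 against 29.8 and 22.7 CPM, and at 40.9 and 44.8 CPM in puerarin 2 and 3 against 32.7 and 29.8 CPM. In db/m it was at 41.1 to 64.2 CPM. Its log2 fold change with puerarin was 0.39 (SE 0.11, edgeR adjusted p = 0.967). Slc22a7, an organic anion transporter gene, was at 0.415 to 0.597 CPM in puerarin, 0.674 to 1.09 CPM in db/db vehicle and 2.15 to 6.55 CPM in db/m.

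The pathway lists on matrix, inflammation and stress had small medians. The 40 extracellular matrix genes had a median of -0.03, the 19 inflammation genes 0.13, the 20 interferon genes 0.01 and the 11 complement genes -0.09. The 25 angiogenic genes had a median of 0.14 and the 26 actin and adhesion genes 0.03. The 27 antioxidant genes had -0.08, with 23 lower, and the 15 NADPH oxidase and sirtuin genes had -0.23. Of 18 glycolysis genes, 16 were lower (median -0.23), with -0.45 by the S-number and -0.12 by the group-tag libraries. Lists of autophagy (-0.02), endoplasmic reticulum stress (-0.01), apoptosis (-0.01), the cell cycle (-0.05), lipid synthesis (-0.05), immediate early genes (0.02) and ribosomal proteins (0.04) had medians within 0.1 of zero. The lists of lymphocyte (-0.15), erythroid (-0.29), parietal epithelial (-0.14), female-biased kidney (0.12) and glucocorticoid response genes (-0.17) had 4 to 11 measured members each. Several of these medians had opposite signs in the S-number and the group-tag libraries, in that order: interferon 0.23 and -0.16, extracellular matrix 0.17 and -0.05, erythroid 0.18 and -0.68, parietal epithelial -0.59 and 0.12, female-biased kidney -0.39 and 0.34, glucocorticoid response 0.12 and -0.17 and immediate early -0.21 and 0.11. Among others near 0, those of the matrix (0.17), complement (0.09), lymphocyte (0.04) and female-biased kidney (-0.14) lists turned without vehicle 1. Without puerarin 2 and 3, medians were 0.18 for matrix, 0.25 for interferon, -0.36 for complement and -0.26 for antioxidant genes. They were -0.45 for NADPH oxidase and sirtuin, -0.42 for glycolysis and 0.06 for inflammation genes. The same fit gave -0.72 for lymphocyte, -0.61 for parietal epithelial, -0.59 for female-biased kidney, 0.04 for erythroid and 0.03 for glucocorticoid response genes.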

How the data were processed

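Glomerular RNA of 11 libraries was sequenced, of which 7 entered the comparison and all 11 the fit. The authors deposited whole-number read counts per RefSeq transcript, per the file headers, in a table with 15 count columns; 4 of them fitted none of the sample titles and were left out. BWA, limma and the build mm10 are named without versions, per the submitters' processing notes. The sources used here do not give the counting tool or its use of strand. The deposited log2 values equal the log2 count plus a constant per library and were used in 1 alternative only.

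Counts of 22320 transcripts were summed to 13734 genes by symbol, after 50 symbols turned into dates were restored and 13 blank cells in 7 transcript rows were set to 0. Of 4562 genes with more than 1 transcript, 75.1% had their 2 highest transcripts within 10% of each other, so shared reads may be counted more than once. Depth was 35369703 to 44244460 counts per library. Within groups, every pair of libraries differed beyond sampling noise.

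Genes were tested in R 4.3.3 with the quasi-likelihood functions of edgeR 4.0.16 (glmQLFit, then glmQLFTest, on TMM-scaled counts). The model held group and name form over all 11 libraries, and tests were two-sided, with Benjamini-Hochberg adjustment over 13734 genes. A gene needed a count of 1 in 3 libraries, which removed 0 genes. The fit had 7 residual degrees of freedom. A difference within a name form is one of mean log2 CPM with a prior count of 2. The script was tested on simulated data. Alternatives were DESeq2 1.42.0, limma 3.58.1, other scalings and filters, the highest transcript only, no name form term, the 7 db/db libraries only, a tubule covariate and leaving out libraries.

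Named genes were the 15 autosomal genes per direction with the smallest p and the same sign in both name forms, up to 3 per list, up to 10 per direction in the fit without puerarin 2 and 3, and a fixed set. Not all of these are described. Myh11, Myl9, Cnn1, Des, C1qa and Kdm5d (6 genes) fell outside the rule, being picked once their values had been seen. The members and the 37 lists were chosen with earlier results of these data known. Promoters came from RefSeq (GRCm38.p6).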

Additional observations from a re-analysis of the deposited data

Results flagged for a closer look

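In the 4 vehicle libraries, 99 genes and lists were screened for a library far from the other 3. Chance alone marks about 1 in 20 such groups. Nr4a2 was at 8.70 CPM in vehicle S152, above the other 3. Xist was at 6.47 CPM in vehicle 3, far below the 528 and 819 CPM of puerarin 2 and 3. The glomerular endothelial list had a level of -0.52 in vehicle 3, the lowest of the 4. The puerarin difference of Kdm5d, a Y-linked histone demethylase gene, differed by -3.11 on the log2 scale, group-tag minus S-number libraries. In edgeR's test of that interaction, which was added after seeing the data, Kdm5d was the 1 gene of 13734 that passed the adjusted threshold, and 456 had an unadjusted p under 0.05. It was at 2.24 and 1.77 CPM in puerarin 2 and 3 and at 16.3 to 17.8 CPM in S144 and the vehicle libraries.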

How the results depend on the processing

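DESeq2 called 15 genes, 12 higher and 3 lower, where edgeR called 0. Leaving out 1 library gave 0 to 5 calls, 0 to 1 higher and 0 to 4 lower; the 5 came without puerarin S144. The count at an unadjusted p under 0.05 was 578, and it was 1193 with the tubule covariate, 1105 without vehicle 1, 759 without puerarin 2 and 3 and 337 with no name form term. Of 62 single genes, 49 kept their direction in all 18 settings. Many of the 62 were picked for a small p, and the ranked ones also for the same sign in both name forms. Keeping a direction is thus partly fixed by that choice, and the count does not show that the values are robust. Without puerarin 2 and 3, the log2 fold change turned for Cnn1 (-0.57), Des (0.04), Gnai2 (0.12), Xist (-0.77), Ddx3y (0.03), Kdm5d (0.00), Dkk3 (-0.00) and Dbp (0.08). Gnai3 turned to -0.03 with no name form term and to -0.05 with the tubule covariate, and Aqp2 (0.25) and Cldn19 (0.23) turned with no name form term. Leaving out 1 library gave -0.05 to 0.17 for Gnai1, -0.15 to 0.09 for Gnai2, -0.01 to 0.05 for Gnai3, -0.81 to 0.43 for Aqp2, -0.51 to 0.34 for Cldn19, -0.04 to 0.16 for Dkk3 and -0.10 to 0.50 for Hspb1. The cause of these turns was not tested. Over 37 lists and 18 settings, 36 median values moved by at least the SD of that list's level among the vehicle libraries, and 630 did not. That SD was wide for some lists (1.22 for myeloid, 0.93 for proximal tubule). The proximal tubule change from -0.39 to 0.35 without vehicle 3 thus counts as not moved, and the tally does not show that the medians are stable. With 1 puerarin library left in a name form, differences there have no replicate. No paired analysis was possible because the puerarin and db/db vehicle titles share only the number 3.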
